A study of Mus musculus with 6 samples.

Results

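The genes described here are markers of marginal zone B cells and targets of the receptor Notch2, together with Plxnd1. The 10 genes are Notch2 itself, Dtx1, Hes1, Hes5, Plxnd1, Cr2, Cd1d1, Cd9, Asb2 and Myof. They were chosen by gene name from the 41053 gene names of the count table, with earlier results of these data known. Plxnd1 was added to the markers and targets, so a call among the 10 is not independent of that choice. RNA had been sequenced from naive B cells of the spleen of C57BL/6 mice. There were 3 libraries from mice labelled TET2 knockout (KO) and 3 from mice labelled TET2 wild type (WT), numbered 2, 3 and 4 in each genotype. TET2 oxidizes the methyl mark on cytosines of DNA, and the comparison asks which transcripts differ when it is lost. The labels do not say which part of the gene was deleted, in which cells it was deleted, how the naive B cells were sorted, or whether the libraries are from different mice. The p-values therefore reflect library-to-library spread alone, and part of it may be technical.

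Notch receptors are cleaved when a neighbouring cell presents a Delta or Jagged ligand. The freed intracellular part then enters the nucleus, where it joins the DNA-binding protein RBPJ and switches on target genes. In the mouse spleen, B cells that receive a signal through Notch2 from the ligand Dll1 become marginal zone cells. These cells border the follicles, carry high CD21 and CD1d, and lack most of the CD23 found on follicular cells. A naive B cell preparation from whole spleen may hold both kinds of cell, and bulk counts cannot tell a smaller number of marginal zone cells from less RNA per cell.

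Sequences before the gene starts are shown for Plxnd1, the gene of this group that fell in KO, and for Hes5, Cr2 and Cd9, in which the core letters bound by RBPJ were found. Each is the 250 bases before the annotated start on the strand of the gene, from RefSeq (GRCm38.p6). The Plxnd1 window is chr6:115995006-115995255 (minus strand), that of Hes5 chr4:154960673-154960922 (plus strand), that of Cr2 chr1:195176720-195176969 (minus strand) and that of Cd9 chr6:125494761-125495010 (minus strand). In Plxnd1 the capitals mark CG pairs, the sites at which mammalian DNA is mainly methylated. In the other sequences the capitals mark TGGGAA or its reverse complement TTCCCA.
Plxnd1: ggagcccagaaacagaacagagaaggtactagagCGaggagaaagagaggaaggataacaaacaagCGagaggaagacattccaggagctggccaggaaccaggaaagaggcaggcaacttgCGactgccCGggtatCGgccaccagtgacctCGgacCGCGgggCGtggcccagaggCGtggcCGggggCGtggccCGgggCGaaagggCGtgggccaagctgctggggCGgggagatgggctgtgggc
Hes5: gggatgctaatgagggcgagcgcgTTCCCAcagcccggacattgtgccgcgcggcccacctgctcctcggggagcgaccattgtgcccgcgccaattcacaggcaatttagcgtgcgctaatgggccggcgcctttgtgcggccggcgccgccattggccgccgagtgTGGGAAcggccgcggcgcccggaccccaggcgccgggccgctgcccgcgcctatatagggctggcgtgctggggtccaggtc
Cr2: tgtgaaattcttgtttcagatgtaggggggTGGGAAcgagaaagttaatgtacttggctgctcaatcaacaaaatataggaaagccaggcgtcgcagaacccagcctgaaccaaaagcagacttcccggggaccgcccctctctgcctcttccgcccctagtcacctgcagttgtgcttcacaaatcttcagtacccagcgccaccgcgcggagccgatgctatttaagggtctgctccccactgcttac
Cd9: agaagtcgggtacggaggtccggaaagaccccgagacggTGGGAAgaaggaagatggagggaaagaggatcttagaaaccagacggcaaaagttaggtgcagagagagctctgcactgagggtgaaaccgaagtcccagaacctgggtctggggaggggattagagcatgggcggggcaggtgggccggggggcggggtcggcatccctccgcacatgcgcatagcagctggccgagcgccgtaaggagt

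Windows were found for 8 of the 10 genes, 9 windows in all, and not for Hes1 and Cd1d1. TGGGAA, searched on both strands, was present in those of 3 genes, while 21.6% of all 32851 windows of this length held it. In Hes5 it was present on each strand, beginning at position −82 from the start as TGGGAA and at −226 as TTCCCA. In Cr2 it began at position −220 and in Cd9 at −211. The longer GTGGGAA, which contains TGGGAA, was also found in all of these 3, and in 5.41% of all windows. The Plxnd1 window held 16 CG pairs, against a median of 6 over all windows, and no TGGGAA. The other counts of CG pairs were 34 in Notch2, 32 in Hes5, 16 in Cd9, 15 in Dtx1, 11 in Cr2, 11 in Myof, and 3 and 5 in the windows of Asb2. These counts describe the letters in the windows only.

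Totals ranged from 35101788 to 45401781 counts per library, and the common biological coefficient of variation was 12.4%. This is the spread between libraries beyond counting noise, as edgeR estimates it from the dispersion. On principal components of log2 CPM over all tested genes (CPM is the count scaled to library size) the first, with 38.6% of the variance, separated the genotypes, and the second, with 31.5%, set both libraries numbered 4 apart from the other 4. The genotypes also differed in sex-linked transcripts, with the Y-linked Kdm5d at 30.8 ± 6.52 CPM in KO and at most 0.0571 CPM in WT. Xist, made from an inactive X chromosome, was present in all libraries, at 847 ± 42.5 CPM in KO and 1489 ± 47.1 CPM in WT (edgeR adjusted p = 0.00251). The KO libraries thus held both kinds of transcript, the labels do not give the sex of the mice, and TET2 genotype and what goes with these transcripts cannot be told apart in any comparison here. Transcripts of Tet2 were at 58.1 ± 7.47 CPM in KO and 71.6 ± 13.5 CPM in WT (edgeR adjusted p = 0.408), and since the deleted part is not given this does not check the labels.

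All 10 genes passed the filter on low counts and were tested among 13604 genes. Plxnd1, a receptor for semaphorins, fell in KO to 48.3% of the WT level. The other 9 genes, among them Notch2 and its targets Dtx1, Hes1, Hes5 and Cr2, did not pass the threshold (edgeR, adjusted p under 0.05). DESeq2 and limma-voom also called Plxnd1 and no other of the 10. Over all tested genes 0.404% passed in either direction, and 0.221% passed as lower in KO. At an unadjusted p under 0.05 the count was 2 of the 10 genes, Plxnd1 and Cd9, against 13.4% of all tested genes, and 5.51% of all tested genes were lower in KO at that p. These shares also belong beside the counts at that p in the lists below. The median log2 change was −0.12 over the 10 genes, 9 of them negative, and −0.01 over all tested genes. Of the 13604 tested genes 6641 had a positive change.

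**Figure D1:**
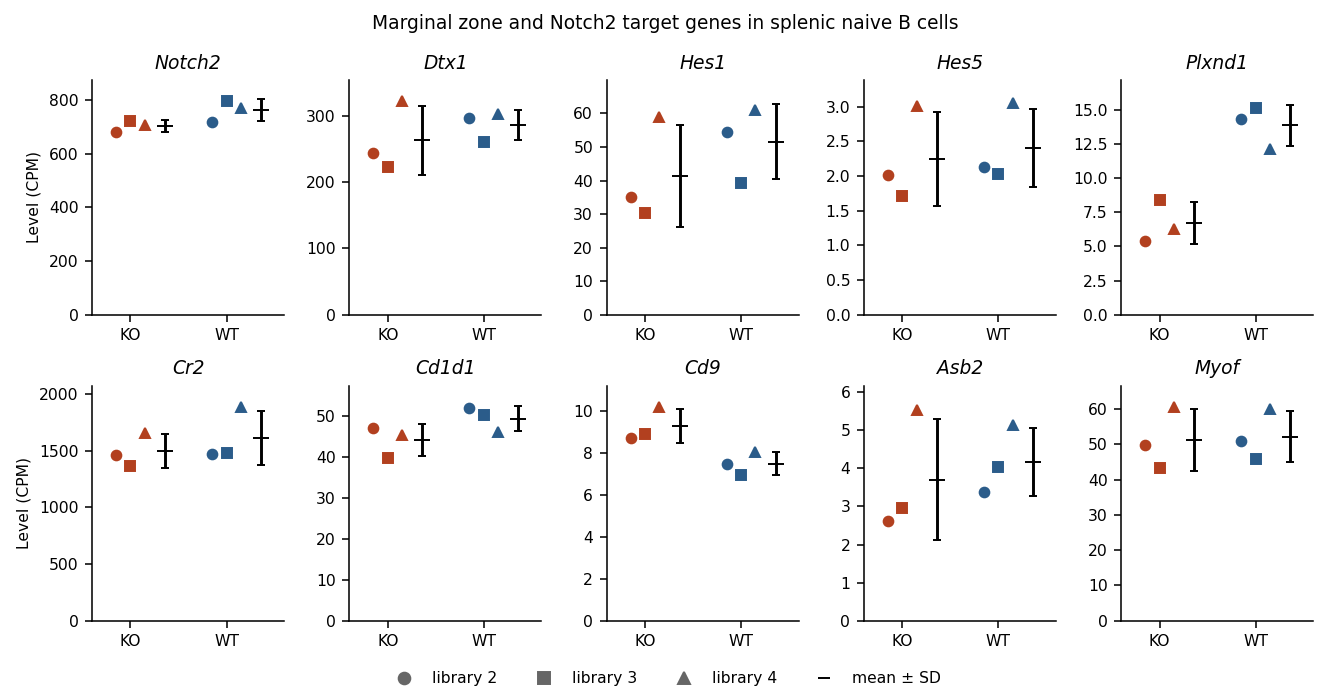
Level in CPM of each gene in the 3 KO and the 3 WT libraries, with the symbol giving the library number and the bar the mean ± SD (n = 3 each). Plxnd1 is at most 8.38 CPM in KO and at least 12.2 CPM in WT, while the genotypes overlap for every other gene shown but Cd9.

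Levels between genes were compared as CPM per kilobase of the deposited exon length. Cr2 was the most abundant, at 206 ± 20.9 in KO and 223 ± 32.9 CPM per kilobase in WT (mean ± SD, n = 3 each). Notch2 followed with 67.0 ± 2.06 in KO and 72.5 ± 3.92 in WT, and Dtx1 with 56.4 ± 11.2 in KO and 61.3 ± 4.82 in WT. Hes1 was at 20.3 ± 7.51 in KO and 25.3 ± 5.54 in WT, next to Cd1d1 at 17.1 ± 1.52 in KO and 19.2 ± 1.19 in WT. Libraries of Hes1 and Cd1d1 overlapped in both genotypes, so their order is not beyond the spread, and so did those of Notch2 and Dtx1 in KO only. Myof was at 7.21 ± 1.23 in KO and 7.35 ± 1.02 in WT, and Cd9 at 4.54 ± 0.397 in KO and 3.67 ± 0.268 in WT. The 3 lowest were Hes5, Asb2 and Plxnd1. In KO their levels were 1.65 ± 0.497, 1.05 ± 0.451 and 0.931 ± 0.211 for Hes5, Asb2 and Plxnd1, and neighbours overlapped. In WT Plxnd1 stood above them at 1.93 ± 0.211, overlapping Hes5 at 1.76 ± 0.416, and Asb2 was lowest at 1.18 ± 0.252. Cr2 thus lay at the 98.8th percentile of all tested genes by this measure over all libraries, and Asb2 at the 23.1st.

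The receptor Notch2 (chromosome 3, 98013538 to 98150367, GRCm38, plus strand) was at 680, 722 and 709 CPM in KO libraries 2, 3 and 4, and at 717, 798 and 771 CPM in WT libraries 2, 3 and 4. The highest KO library lay just above the lowest WT library. The log2 change was −0.12 (SE 0.08, 95% interval −0.29 to 0.06, edgeR adjusted p = 0.542). Notch2 also had a low biological coefficient of variation, 8.23%, against a median of 11.65% over all tested genes. This edgeR estimate for a single gene borrows from other genes and is not the SD over the mean. Per kilobase it stood 29.6 ± 3.73 times above Notch1 in KO and 31.5 ± 3.38 times in WT, and these ratios overlapped (exact two-sided permutation p = 0.5).

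Dtx1 (chromosome 5, 120680202 to 120711927, minus strand) encodes Deltex1, a ubiquitin ligase that is induced by Notch and acts on it. It was at 244, 223 and 322 CPM in KO libraries 2, 3 and 4, and at 296, 260 and 302 CPM in WT. KO libraries 2 and 3 were below all WT libraries, but KO library 4 was the highest of all. The log2 change was −0.12 (SE 0.13, 95% interval −0.42 to 0.17, edgeR adjusted p = 0.713). In libraries 2 and 3 alone it was −0.25 and past the threshold (edgeR adjusted p = 0.0188), where 10.4% of tested genes were called lower.

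Hes1 (chromosome 16, 30064384 to 30067796, plus strand) and Hes5 (chromosome 4, 154960923 to 154962371, plus strand) encode transcriptional repressors that are classical targets of Notch. Hes1 was at 34.99, 30.3 and 58.8 CPM in KO libraries 2, 3 and 4, and at 54.6, 39.1 and 61.1 CPM in WT. The same order of libraries was seen for Hes5, at 2.02, 1.71 and 3.01 CPM in KO and 2.13, 2.02 and 3.06 CPM in WT. Within each number the KO library was the lower one for both genes, but the labels do not pair libraries of the same number. The spread within a genotype was larger than the difference between genotypes. The log2 change was −0.32 for Hes1 (SE 0.26, 95% interval −0.92 to 0.28, edgeR adjusted p = 0.621). For Hes5 it was −0.09 (SE 0.26, 95% interval −0.69 to 0.50, edgeR adjusted p = 0.907). Hes1 and Hes5 thus had wide intervals, and their biological coefficients of variation, 22.3% and 21.8%, were above those of 87.7% and 86.8% of tested genes. Hes5 shares 433 exon bases with Gm20421 on the opposite strand, and the counting did not use strand, so its level is less certain.

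Plxnd1 (chromosome 6, 115954811 to 115995005, minus strand) encodes plexin D1, a receptor of the guidance protein semaphorin 3E that is best known from endothelial cells. It was at 5.43, 8.38 and 6.29 CPM in KO libraries 2, 3 and 4, resting on 239, 348 and 249 counts. In WT libraries 2, 3 and 4 it was at 14.3, 15.1 and 12.2 CPM, resting on 632, 664 and 426 counts. All KO libraries lay below all WT libraries, as for 8.28% of tested genes, while 18.5% were without overlap in either direction. The log2 change was −1.05 (SE 0.17, 95% interval −1.44 to −0.66, edgeR adjusted p = 0.0440), and only 1.21% of tested genes had a larger change in either direction. The exact two-sided permutation test gave p = 0.1, the smallest that 3 against 3 libraries allow. Within the libraries numbered 2, 3 and 4 the log2 difference was −1.40, −0.85 and −0.95, though the labels do not pair libraries of the same number. The call was close to the threshold: it was lost without KO library 2 (edgeR adjusted p = 0.229), KO library 4 (0.0647), WT library 2 (0.224) or WT library 3 (0.223), and with a filter of 1 CPM in 3 libraries (0.0629). With a term for the libraries numbered 4 Plxnd1 was again the only one of the 10 called, at −1.05 (edgeR adjusted p = 0.00593). That fit called 4.4% of tested genes, 1.81% as lower and 2.59% as higher.

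**Figure D2:**
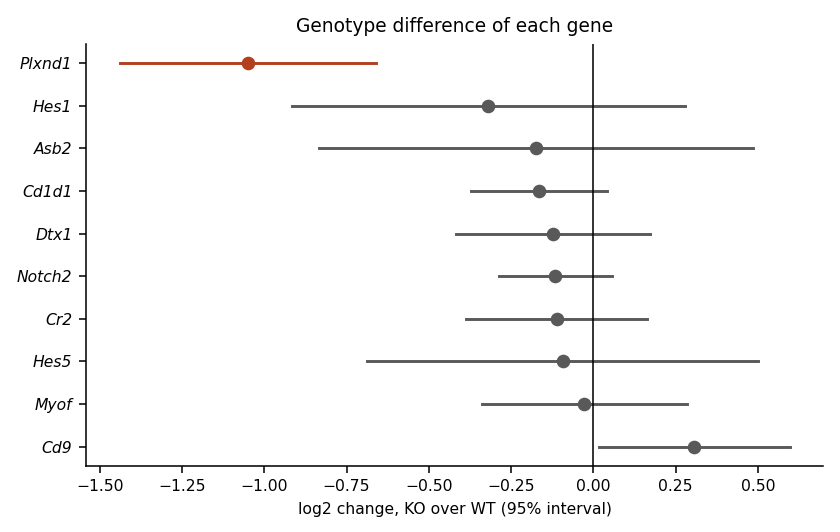
Log2 change of each gene, KO over WT, with its 95% interval from the edgeR fit (3 libraries each), the gene past the threshold in red. The interval of Plxnd1 runs from −1.44 to −0.66, that of Cd9 from 0.02 to 0.60, and those of the other 8 genes include 0.

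Markers of cells other than B cells were set beside Plxnd1. The edgeR fit without covariates called 0 genes of the T cell, myeloid and stromal lists and limma-voom 0, while unadjusted p was under 0.05 for 2 T cell, 3 myeloid and 0 stromal genes. Zap70, a kinase of T cell receptor signalling, was lower in every KO library than in any WT library, as Plxnd1 was. It was at 0.840, 0.506 and 0.859 CPM in KO libraries 2, 3 and 4, and at 2.36, 1.64 and 2.03 CPM in WT. Its log2 change of −1.45 was larger in size than that of Plxnd1 and did not pass the threshold (edgeR adjusted p = 0.0826), but it did in DESeq2 (DESeq2 adjusted p = 0.000916) and with a term for the libraries numbered 4 (edgeR adjusted p = 0.0166). Cd3d, a chain of the T cell receptor complex, lay the other way without overlap, at 0.425 ± 0.187 CPM in KO and 0.214 ± 0.0505 CPM in WT (edgeR adjusted p = 0.359). Cd3e, from the same complex, was near 0, at 0.0561 CPM in KO and 0.0266 CPM in WT. The 12 T cell markers, none at 0 in all libraries, summed to between 50.2 and 67.3 CPM in KO and between 48.9 and 53.3 CPM in WT, most of it Lck, which B cells also express.

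Of 12 myeloid and dendritic markers, none was at 0 in all libraries, and the sum ranged from 26.7 to 37.3 CPM in KO and from 27.8 to 33.4 CPM in WT. The 3 genes with the smallest p lay in different directions, each without overlap of the genotypes. Lyz2, the lysozyme of myeloid cells, was at 5.97 ± 0.908 CPM in KO and 9.01 ± 1.47 CPM in WT (edgeR adjusted p = 0.221; DESeq2 adjusted p = 0.0481). Emr1, which encodes the macrophage marker F4/80, was at 12.3 ± 2.05 CPM in KO and 9.03 ± 0.696 CPM in WT (edgeR adjusted p = 0.254). Itgax, a marker of dendritic cells, was at 0.984 ± 0.201 CPM in KO and 0.475 ± 0.161 CPM in WT (edgeR adjusted p = 0.247). Of 8 stromal and endothelial markers, 1 was at 0 in all libraries (Pdgfra), and 2 were tested. Cdh5, the cadherin of endothelial cells, was at 1.37 ± 0.178 CPM in KO and 1.25 ± 0.160 CPM in WT (edgeR adjusted p = 0.843). The summed level of that list, nearly all of it Pecam1, which B cells also express, ranged from 309 to 424 CPM in KO and from 325 to 381 CPM in WT. The part of these markers in the difference of Plxnd1 was not tested. The B cell marker Ms4a1 was abundant in every library, at 2534 ± 84.8 CPM in KO and 2148 ± 455 CPM in WT.

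Among the plexins, neuropilins and semaphorins, 13 of 22 genes were tested, and Plxnd1 was the 1 called, as lower (edgeR). The list had 4 genes at an unadjusted p under 0.05, and its median log2 change was 0.08. Plxna1, a plexin that partners neuropilins, was at 5.25, 4.38 and 4.30 CPM in KO libraries 2, 3 and 4, and at 2.85, 2.73 and 2.54 CPM in WT, a log2 change of 0.78 (edgeR adjusted p = 0.115). Plxnb2, a receptor of class 4 semaphorins, was at 13.4, 16.03 and 10.97 CPM in KO and at 21.2, 20.6 and 17.9 CPM in WT, a log2 change of −0.56 (edgeR adjusted p = 0.176). The genotypes did not overlap for either gene, and both passed with the term for the libraries numbered 4 (edgeR adjusted p = 0.0216 for Plxna1 and 0.0115 for Plxnb2) and in DESeq2 (DESeq2 adjusted p = 0.00346 and 0.0170). Nrp2, a semaphorin co-receptor, was at 2.70 ± 0.0683 CPM in KO and 1.89 ± 0.186 CPM in WT (edgeR adjusted p = 0.275). Sema3e, the ligand of plexin D1, was at 0.00802 CPM in KO and at 0 in WT, below the level of 3 counts in a library. Sema4d, the highest of the listed semaphorins per kilobase, was at 71.4 ± 5.84 CPM per kilobase in KO and 66.0 ± 3.85 CPM per kilobase in WT (edgeR adjusted p = 0.593).

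**Figure D3:**
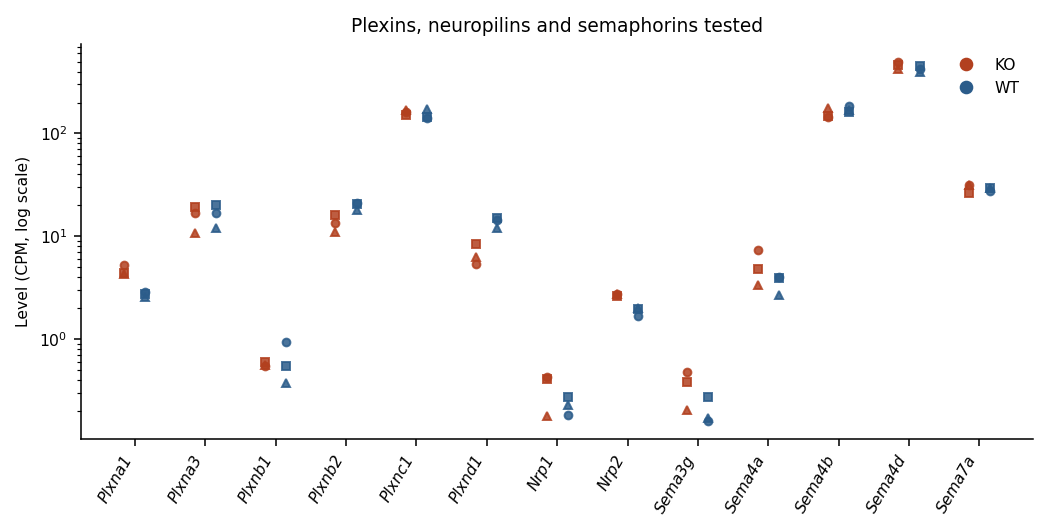
Level in CPM on a log scale of the 13 tested plexins, neuropilins and semaphorins in each library, KO left of WT for each gene, with circles, squares and triangles for libraries 2, 3 and 4. Plxnd1 and Plxnb2 are lower and Plxna1 and Nrp2 higher in every KO library than in any WT library, and of these Plxnd1 alone passed the threshold.

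Cr2 (chromosome 1, 195136811 to 195176715, minus strand) encodes the complement receptors CD21 and CD35 of B cells. It was at 1459, 1365 and 1661 CPM in KO libraries 2, 3 and 4, and at 1474, 1478 and 1890 CPM in WT. The genotypes overlapped, with library 4 the highest in each. Cr2 had a log2 change of −0.11 (SE 0.12, 95% interval −0.39 to 0.16, edgeR adjusted p = 0.721). Set against Fcer2a, the follicular marker CD23, Cr2 per kilobase was 0.272, 0.218 and 0.394 of its level in KO libraries 2, 3 and 4, and 0.292, 0.289 and 0.440 in WT (exact two-sided permutation p = 0.5). In the list of complement receptors and their partners edgeR, DESeq2 and limma-voom each called 0 of 9 tested genes, with unadjusted p under 0.05 for 2. These were Cd55, a complement regulator at 785 ± 28.0 CPM in KO and 928 ± 90.6 CPM in WT (edgeR adjusted p = 0.314), and Itgax, a complement receptor chain at 0.984 ± 0.201 CPM in KO and 0.475 ± 0.161 CPM in WT (edgeR adjusted p = 0.247).

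Cd1d1 (chromosome 3, 86995834 to 86999441, minus strand) encodes CD1d, which presents lipids to natural killer T cells. It was at 47.2, 39.7 and 45.3 CPM in KO libraries 2, 3 and 4, and at 52.0, 50.2 and 46.0 CPM in WT. KO library 2 lay above WT library 4, so the genotypes overlapped. Cd1d1 had a log2 change of −0.17 (SE 0.09, 95% interval −0.37 to 0.04, edgeR adjusted p = 0.468). In libraries 2 and 3 alone it was −0.23 and past the threshold (edgeR adjusted p = 0.0475), where 10.4% of tested genes were called lower. The near copy Cd1d2 was at 0.268 CPM in KO and 0.303 CPM in WT, and reads that fit both copies cannot be assigned, so both levels are less certain. Of 8 tested genes of CD1d presentation, edgeR, DESeq2 and limma-voom each called 0, with unadjusted p under 0.05 for 5. Their median log2 change was 0.19, opposite in sign to that of Cd1d1. B2m, the light chain of CD1d and of MHC class I, was at 2544 ± 320 CPM in KO and 1840 ± 505 CPM in WT (edgeR adjusted p = 0.328), and Lamp1, a lysosomal membrane protein, at 232 ± 5.30 CPM in KO and 196 ± 13.01 CPM in WT (edgeR adjusted p = 0.225). With the term for the libraries numbered 4 Lamp1 was called higher in KO, the 1 call of this list (edgeR adjusted p = 0.0450). Psap, the precursor of lysosomal lipid-binding saposins, was at 970 ± 57.9 CPM in KO and 844 ± 16.9 CPM in WT (edgeR adjusted p = 0.325).

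Cd9 (chromosome 6, 125460266 to 125494791, minus strand) encodes a tetraspanin found on marginal zone, B-1 and plasma cells, and was the 1 gene of the 10 with a positive change. It was at 8.72, 8.91 and 10.2 CPM in KO libraries 2, 3 and 4, and at 7.497, 6.96 and 8.05 CPM in WT. Every KO library was above every WT library, as for 10.2% of tested genes. Its log2 change was 0.31 (SE 0.13, 95% interval 0.02 to 0.60), with an unadjusted p of 0.0400 in the edgeR fit and an edgeR adjusted p of 0.353. Cd9 shares 30 exon bases with a clone gene on the opposite strand. Among 13 tested tetraspanins and their partners each of edgeR, DESeq2 and limma-voom called 0, unadjusted p was under 0.05 for 3, and the median log2 change was 0.18. Besides Cd9 these were Tspan31, at 20.6 ± 1.64 CPM in KO and 15.3 ± 1.99 CPM in WT (edgeR adjusted p = 0.200), and Tspan14, a partner of the Notch-cleaving protease ADAM10, at 92.8 ± 7.004 CPM in KO and 76.7 ± 6.12 CPM in WT (edgeR adjusted p = 0.250). With the term for the libraries numbered 4 Tspan31 was the 1 call of this list (edgeR adjusted p = 0.0331). Among plasma cell markers, set beside Cd9, the 1 of 5 tested genes with unadjusted p under 0.05 was Igj, the joining chain of secreted antibodies. The median log2 change of these 5 was −0.12, and Igj alone had a positive change. Igj was at 32.9, 21.3 and 11.1 CPM in KO libraries 2, 3 and 4, and at 7.95, 13.3 and 4.91 CPM in WT, with overlap (edgeR adjusted p = 0.325). Its part in the difference of Cd9 was not tested.

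Asb2 (chromosome 12, 103321142 to 103356001, minus strand) encodes the substrate receptor of a ubiquitin ligase that marks filamins for degradation. It was at 2.61, 2.96 and 5.53 CPM in KO libraries 2, 3 and 4, and at 3.37, 4.02 and 5.14 CPM in WT. The KO libraries included both the lowest and the highest value, and the biological coefficient of variation, 25.1%, was above that of 92.1% of tested genes. Asb2 had a log2 change of −0.17 (SE 0.29, 95% interval −0.83 to 0.49, edgeR adjusted p = 0.829). Of 8 tested genes of this ligase and the filamins, none (0) was called by any of edgeR, DESeq2 and limma-voom, with unadjusted p under 0.05 for 0. The filamin Flna was at 1398 ± 157 CPM in KO and 1381 ± 119 CPM in WT (edgeR adjusted p = 0.962).

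Myof (chromosome 19, 37899036 to 38043577, minus strand) encodes myoferlin, a membrane protein of the ferlin family with roles in membrane fusion and repair. It was at 49.7, 43.4 and 60.7 CPM in KO libraries 2, 3 and 4, and at 50.8, 45.8 and 60.05 CPM in WT. Libraries of the same number, which the labels do not pair, were nearly equal. Myof had a log2 change of −0.03 (SE 0.14, 95% interval −0.34 to 0.28, edgeR adjusted p = 0.954). The only other ferlin tested was Fer1l5, at 6.88 ± 0.555 CPM in KO and 7.71 ± 1.09 CPM in WT (edgeR adjusted p = 0.665). These 2 genes made up the tested part of a list of 6, in which all 3 tools called 0 and unadjusted p was under 0.05 for 0.

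The libraries numbered 4 differed from the others within both genotypes for most of these genes. For Dtx1, Hes1, Hes5, Cr2, Asb2 and Myof, 6 of the 10, both libraries numbered 4 lay above all 4 other libraries, as for 17.5% of tested genes. With Cd9 added, library 4 was the highest of its genotype in both genotypes for 7 of the 10, as for 23.3% of tested genes. Asb2 in KO library 4 exceeded KO libraries 2 and 3 by 0.99 on the log2 scale, and in WT library 4 exceeded WT libraries 2 and 3 by 0.48. For Hes1 these differences were 0.85 in KO and 0.40 in WT, and for Hes5 0.69 in KO and 0.56 in WT. Notch2 differed by 0.02 in KO and 0.03 in WT, and Plxnd1 by −0.10 in KO and −0.27 in WT. None of the 10 genes was lower in both libraries numbered 4 than in all others, against 18.7% of tested genes. The labels do not say what sets these libraries apart, and what it contributed was not tested.

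**Figure D4:**
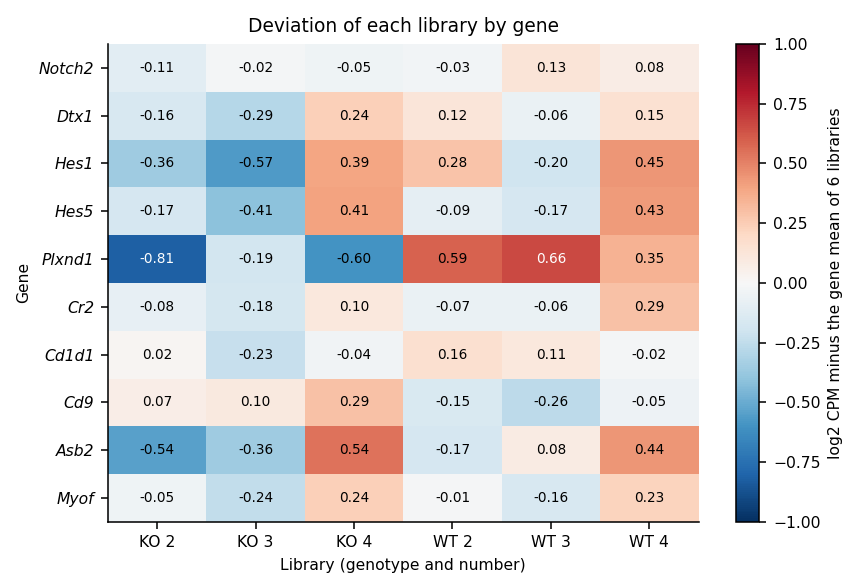
Log2 CPM of each gene in each library minus the gene's mean over the 6 libraries, with red above and blue below that mean. Libraries KO 4 and WT 4 are both above the mean for Dtx1, Hes1, Hes5, Cr2, Asb2 and Myof, while Plxnd1 is below it in all KO and above it in all WT libraries.

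The Notch pathway, including Notch2, Dtx1, Hes1, Hes5 and Cr2, was described from lists of 59 genes, of which 50 were tested. Of these edgeR called 0, DESeq2 1 and limma-voom 0, while DESeq2 called 349 of the 13604 tested genes. Unadjusted p was under 0.05 for 7 of the 50, against 13.4% of all tested genes, and the median log2 change was −0.05. The genotypes did not overlap for 6 of the 50, against 18.5% of all tested genes. The ligand Dll1 was at 6.17 ± 0.914 CPM in KO and 5.20 ± 0.474 CPM in WT (edgeR adjusted p = 0.531). Jag2 was the other ligand tested of 5 listed, and 0 had an unadjusted p under 0.05. Among the receptors Notch1 was at 32.5 ± 3.16 CPM in KO and 33.1 ± 4.48 CPM in WT (edgeR adjusted p = 0.941). Lfng and Mfng, sugar transferases that tune the response of Notch2 to Dll1, had log2 changes of −0.01 and −0.03 (edgeR adjusted p = 0.978 and 0.922).

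Among the genes for receptor cleavage the sheddase Adam10 was at 177 ± 7.19 CPM in KO and 164 ± 14.2 CPM in WT (edgeR adjusted p = 0.554). Rbpj, the DNA-binding partner of the cleaved receptor, was the most different of the pathway by p. It was at 21.7, 21.0 and 21.8 CPM in KO libraries 2, 3 and 4, and at 16.5, 15.5 and 14.6 CPM in WT. Every KO library was above every WT library, and the log2 change was 0.47 (SE 0.09). It did not pass the threshold in edgeR (edgeR adjusted p = 0.1002) but did in DESeq2 (DESeq2 adjusted p = 0.00107) and with the term for the libraries numbered 4 (edgeR adjusted p = 0.0131). The coactivator Ep300 was at 350 ± 14.7 CPM in KO and 400.2 ± 13.2 CPM in WT (edgeR adjusted p = 0.305).

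Spen, a corepressor that joins RBPJ when Notch is silent, had a log2 change of −0.20 without overlap of the genotypes (edgeR adjusted p = 0.307). The same held for Mib2, a ubiquitin ligase of Notch ligands, at −0.21 (edgeR adjusted p = 0.301). Of 6 tested targets all had negative changes, with a median of −0.13 and 0 at an unadjusted p under 0.05. This list contains Hes1, Hes5, Dtx1 and Cr2. Nrarp, a target that limits Notch signalling, was at 3.83 ± 0.614 CPM in KO and 4.90 ± 0.714 CPM in WT (edgeR adjusted p = 0.434). Myc was at 106 ± 32.6 CPM in KO and 117 ± 9.89 CPM in WT (edgeR adjusted p = 0.768). Hey1, a further target, stayed below the filter at 0.0716 CPM in KO and 0.197 CPM in WT.

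**Figure D5:**
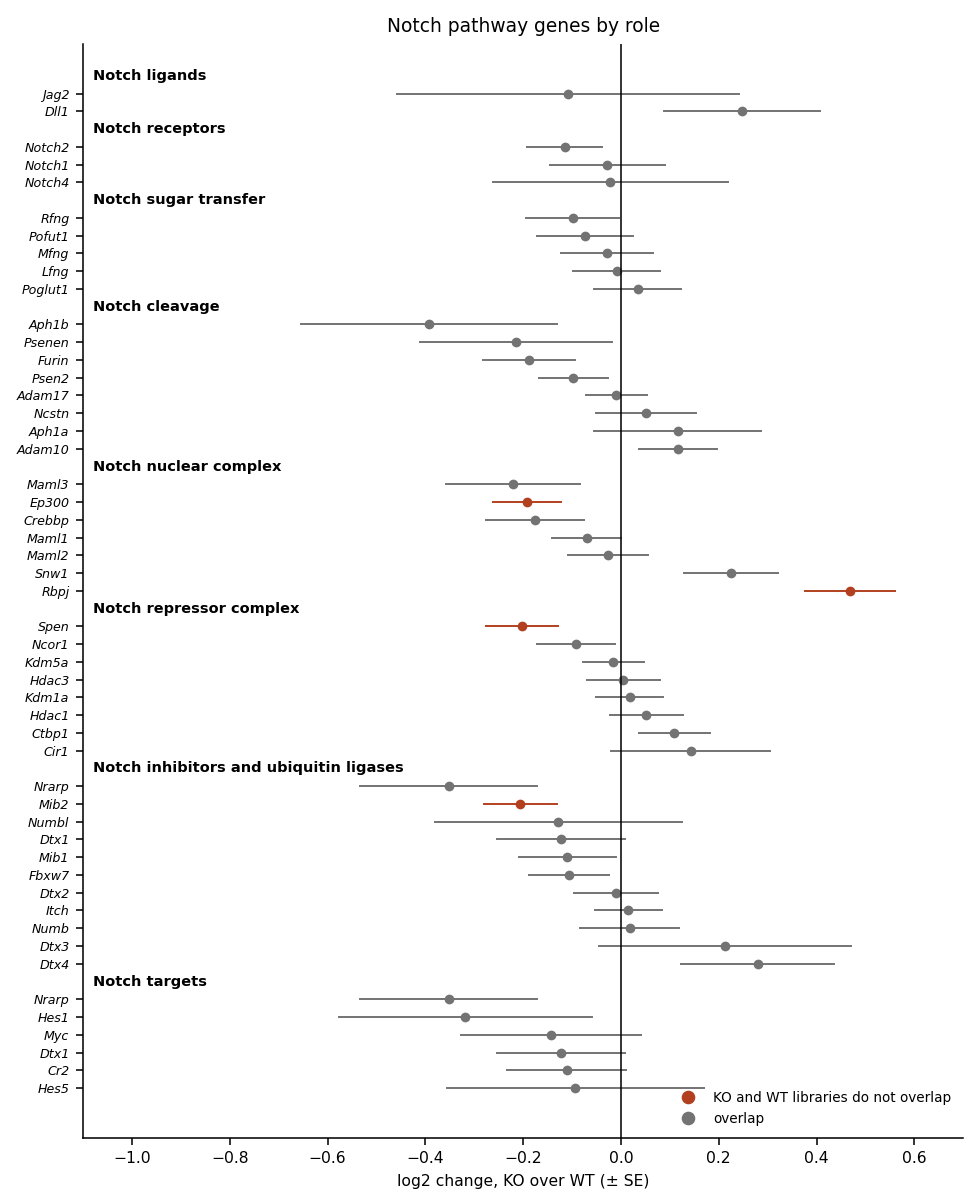
Log2 change, KO over WT, with its SE for 48 of the 50 tested Notch pathway genes grouped by role, a gene in more than 1 group being drawn in each. Genes in red, whose KO and WT libraries do not overlap, are Ep300, Rbpj, Spen and Mib2, and none passed the threshold in the edgeR fit.

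Markers of the B cell subsets were compared in the same way. Of 26 tested genes in the marginal zone list, which include the 10 genes above and so the added Plxnd1, Plxnd1 fell and 25 were not called (edgeR). Of the 26, 6 had an unadjusted p under 0.05, 15 had a positive change, and the median was 0.12. For the 8 tested genes of B cell identity in general, 7 changes were positive and the median was 0.13. Cd36, a scavenger receptor, was at 60.2, 69.9 and 66.7 CPM in KO libraries 2, 3 and 4, and at 33.9, 39.6 and 62.8 CPM in WT (edgeR adjusted p = 0.314). Mzb1, a chaperone of antibody secretion, was at 198 ± 7.17 CPM in KO and 156 ± 37.1 CPM in WT (edgeR adjusted p = 0.34999). S1pr3, a receptor that holds cells in the marginal zone, was at 18.4 ± 5.58 CPM in KO and 22.9 ± 7.95 CPM in WT (edgeR adjusted p = 0.648).

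Of 13 tested follicular markers edgeR called 0, DESeq2 1 and limma-voom 0, unadjusted p was under 0.05 for 3, and the median was 0.08. The gene called by DESeq2 was Klf2, a transcription factor that keeps B cells follicular and limits the marginal zone pool, at 355, 336 and 541 CPM in KO libraries 2, 3 and 4, and 641, 639 and 558 CPM in WT. Its log2 change was −0.58 (edgeR adjusted p = 0.219; DESeq2 adjusted p = 0.0369), and libraries 4 of both genotypes were close to each other. Fcer2a was at 1632 ± 316 CPM in KO and 1489 ± 141 CPM in WT (edgeR adjusted p = 0.714). Of 6 tested transitional markers the 3 tools each called 0, with unadjusted p under 0.05 for 1. This was Sox4, a transcription factor of early B cells, at 2.61 ± 0.388 CPM in KO and 3.60 ± 0.621 CPM in WT (edgeR adjusted p = 0.360).

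The 5 protein-coding genes whose pattern over the 6 libraries was most like that of Plxnd1 were Atp8b4, St6galnac3, Afap1, Cdc42bpa and Map10, of 10528 compared. Likeness was the root-mean-square difference of log2 CPM after centring each gene, which was 0.13, 0.14, 0.17, 0.19 and 0.19 in that order. All were lower in every KO library than in any WT library, as this measure favours. Afap1, an actin filament protein, was at 5.02 ± 0.352 CPM in KO and 9.04 ± 0.883 CPM in WT (edgeR adjusted p = 0.0432). Map10, which binds microtubules, was at 3.24 ± 0.206 CPM in KO and 6.47 ± 0.590 CPM in WT (edgeR adjusted p = 0.0309). Atp8b4, a phospholipid flippase, was at 1.37 ± 0.204 CPM in KO and 2.48 ± 0.179 CPM in WT (edgeR adjusted p = 0.147). The counts of St6galnac3 and Cdc42bpa were between 9 and 44 in each library.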

How the data were processed

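RNA was sequenced from splenic naive B cells, with 3 libraries from TET2 knockout and 3 from TET2 wild-type mice, prepared, per the labels, by a stranded mRNA protocol. The values are the authors' deposited counts per gene name, whole numbers without normalization, made with featureCounts 1.5.1 on GENCODE vM3 exons with no strand, multi-mapping or overlap option, per the file headers. The submitters' processing notes name STAR 2.3.0e and GRCm38.p3. The table's exon length, another deposited value (bases per gene name), served only to set levels per kilobase. A further 6 count columns match no sample used here and were left out.

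The genotypes were compared with the quasi-likelihood F test of edgeR (edgeR 4.0.16, limma 3.58.1, R 4.3.3) with TMM normalization, a robust fit, filterByExpr with a minimum count of 10, no covariate, and Benjamini-Hochberg adjustment over 13604 genes at a threshold of 0.05. The test was checked on simulated counts. CPM used TMM library sizes, on which 3 counts in a library are 0.0679 to 0.0857 CPM. Exact permutation tests were two-sided. Intervals of log2 changes are 95% intervals of the fit. DESeq2 1.42.0 and limma-voom were alternatives.

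The 10 genes and all lists were chosen with earlier results of these data known. Named from each list were called genes and up to 4 with the smallest p, plus Tet2 and the 5 genes most like Plxnd1. Kdm5d, Xist, Cd3e, Cd1d2, Fcer2a, Flna, Lfng, Myc, S1pr3, Sema3e, Sema4d, Hey1 and Pdgfra were named outside this rule, after their values were seen. Other alternatives were normalization, filters, a replicate block, a term for the libraries numbered 4, libraries 2 and 3 alone, each library left out, and a fit without Xist and the Y-linked genes. Of the listed genes, Ighd was not analysed here, some others are counted but not reported here by name, and older symbols were matched for Adgre1 and Jchain. The 6 listed plasma cell genes (0 called of 5 tested, 1 at an unadjusted p under 0.05), 8 erythroid and platelet genes (0 of 5, 0 at such a p) and 9 B cell identity genes (0 of 8, 0 at such a p) gave no call in edgeR, DESeq2 or limma-voom.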

Additional observations from a re-analysis of the deposited data

How the results depend on the processing

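Of 160 recomputed log2 changes of the 10 genes under 16 alternative settings, 147 kept their direction and side of the threshold, 5 lost a call, 2 gained one and 6 changed sign. The number of genes called, 55 with all libraries, was 262 with no filter beyond 1 count, 349 in DESeq2, 85 with a replicate block, 599 with the term for the libraries numbered 4 and 3307 in libraries 2 and 3 alone, and between 17 (without KO library 2) and 900 (without WT library 4) with 1 library left out. Of the 10 genes, 3 passed in libraries 2 and 3 alone (Plxnd1, Dtx1 and Cd1d1), all as lower, where 10.4% of tested genes were called lower. Between 0 and 1 passed with 1 library left out, and 0 with a filter of 1 CPM in 3 libraries. Plxnd1 passed in 11 of the 16 settings, with log2 −1.05 and an edgeR adjusted p of 0.0629 under that filter, and between −1.24 and −0.92 with 1 library left out (edgeR adjusted p up to 0.229). The sign changed only when a library was left out, for Hes5 (−0.36 to 0.11), Cr2 (−0.19 to 0.020), Asb2 (−0.58 to 0.024) and Myof (−0.17 to 0.086); the cause was not tested. The fit with a replicate block gave −1.06 for Plxnd1 (edgeR adjusted p = 0.0115) and changed no call among the 10 genes; the numbers were not taken as pairs, since deviations of libraries 2, 3 and 4 correlated at 0.0857, 0.220 and 0.394 with the library of the same number, and KO library 2 correlated best with WT library 3. The libraries numbered 4 did deviate together. The term for the libraries numbered 4 added calls for Rbpj, Plxna1, Plxnb2, Lamp1, Tspan31 and Zap70 among the listed genes, and for Tet2. The order of levels changed for 6 genes without division by length. Hes5, Asb2 and Plxnd1 rest on 71 to 664 counts per library, which limits what can be seen.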
